A study of Mus musculus with 2 samples.

Results

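The adipogenic transcription factors listed for these data were Pparg, Cebpa, Cebpb, Cebpd, Ebf1, Ebf2, Zfp423, Klf4, Klf9 and Nfia. The 10 genes were chosen by name for their known roles in fat cell formation, with earlier results of these data known. Of them 9 were counted among the 28692 genes of the libraries. Cebpd was not analysed here. The cells came from gonadal white adipose tissue (gWAT) of male C57BL/6 mice at 13 weeks of age. The tissue was digested and its stromal vascular fraction (SVF) pelleted, which holds stromal, vascular and immune cells and largely leaves out the floating mature adipocytes. One library (n = 1) came from Adipo-Pgam1 KO mice, which carried floxed Pgam1, a glycolytic enzyme gene, together with a Cre driven by the adiponectin (Adipoq) promoter, and 1 from littermate controls, which the study's methods describe as floxed mice without Cre and the labels as wildtype. The adiponectin promoter is active in adipocytes, which the fraction largely lacks, and the number of mice behind each library was not given in the sources used here.

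A preadipocyte becomes an adipocyte through a cascade of such factors. Cebpb, Cebpd and Klf4 are induced early by hormonal signals, among them glucocorticoids and cyclic AMP, and act upstream of Pparg and Cebpa, which maintain each other and switch on the lipid storage genes. Klf9 is also induced by glucocorticoids. Ebf1, Ebf2 and Zfp423 mark or commit precursor cells, and Nfia works with Pparg at the enhancers of fat cell genes. In the stroma of adipose tissue, cells with Pi16 and Dpp4 are described as an early progenitor state, and cells without them as interstitial preadipocytes.

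The data are counts of unique molecular identifiers (UMIs), each standing for 1 captured molecule. The control library held 8522 barcodes with 42859406 UMIs and the KO library 2730 with 13821581, of which 3881 and 958 were kept as cells, having 500 or more genes detected and no more than 10% of UMIs from mitochondrial genes. Of all barcodes 9 were shared by both libraries, and 0 of the kept ones. Stromal cells, those with at least 10 Dcn and at least 1 Pdgfra UMIs, numbered 1019 (control) and 218 (KO), with medians of 12123 and 16709 UMIs per cell, and the other cells were placed in classes named below for the marker genes that they carried. All 7 stroma markers were found in the stroma of both libraries, whereas the 6 adipocyte markers summed to 4.70 UMIs per 1000000 (CPM) in the control and 3.81 in the KO stroma, with Lep at 0 in both. The stromal rule has thresholds, and 20 control and 1 KO stromal cells had 10 to 14 Dcn UMIs, while 16 and 2 cells with Pdgfra fell just short with 5 to 9, and 205 and 51 cells had enough Dcn but no Pdgfra UMI. Pgam1 itself stood at 110.7 CPM in the control and 107.2 in the KO stroma, taken as a whole. The paper reports markedly lower Pgam1 in KO cells of a fibroblast cluster rich in adipocyte markers, which it proposes to be preadipocytes. That cluster was not defined here, so the level over the whole stroma does not bear on it. Doublets were not called, and 22.9% of the control and 19.3% of the KO stromal cells also met the marker rule of another class, most often that of smooth muscle in 91 and 20 cells. Macrophage markers summed to 213.9 CPM in the control stroma and to 12.6 in the KO stroma, where Adgre1 was at 0. With 1 library per genotype no test between mice was possible. The 95% intervals given are exact and cover counting error only, so a ratio whose interval leaves out 0 describes these libraries and not the genotype.

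Cebpb and Klf9 were the 2 factors with the highest KO over control ratio in stroma whose interval left out 0, and the 250 bases before their RefSeq start sites (GRCm38.p6, both on the plus strand) are printed for that reason. The Cebpb window is chr2:167688665-167688914 and the Klf9 window chr19:23140976-23141225. Capitals mark matches to any of 6 searched motifs on either strand, namely the cyclic AMP response element (TGACGTCA), AP-1 (TGANTCA), C/EBP (TTNCNNAA), the D-box (TTANGTAA), the glucocorticoid receptor half-site (AGAACA) and the GC box (GGGCGG).
Cebpb: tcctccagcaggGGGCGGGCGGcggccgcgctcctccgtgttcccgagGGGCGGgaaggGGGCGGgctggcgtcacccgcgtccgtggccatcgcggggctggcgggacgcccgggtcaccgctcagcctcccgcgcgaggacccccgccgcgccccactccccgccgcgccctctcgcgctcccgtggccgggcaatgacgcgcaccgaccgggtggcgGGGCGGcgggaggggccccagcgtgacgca
Klf9: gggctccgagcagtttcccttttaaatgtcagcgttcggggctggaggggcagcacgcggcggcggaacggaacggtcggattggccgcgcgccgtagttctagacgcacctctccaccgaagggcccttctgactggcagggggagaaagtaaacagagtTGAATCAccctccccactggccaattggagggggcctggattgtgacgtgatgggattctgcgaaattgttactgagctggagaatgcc
In the Cebpb window 5 GC boxes matched, of which the first 2 overlapped by 2 bases, and GC made up 81.6% of its bases. In the Klf9 window 1 AP-1 motif matched, at 89 bases before the start, and GC made up 59.6%. Of 27025 RefSeq promoter windows of the same length, 32.9% held a GC box, 6.87% an AP-1 motif, 1.62% a cyclic AMP response element, 36.9% a C/EBP motif, 2.11% a D-box and 16.2% a glucocorticoid half-site. Such matches are letters in a window and were not tested as binding sites.

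In GRCm38, Pparg spans chr6:115360951-115490399, Cebpa chr7:35119293-35121928, Cebpb chr2:167688915-167690418, Ebf1 chr11:44617317-45008091, Ebf2 chr14:67233292-67430918, Klf9 chr19:23141226-23168134 and Nfia chr4:97772734-98118874 on the plus strand, and Zfp423 spans chr8:87661810-87959595 and Klf4 chr4:55527143-55532466 on the minus strand. Cebpb has a single exon, whereas the Ebf1 and Ebf2 transcripts have up to 16 and 17. Another counted gene on the opposite strand overlaps Pparg, Cebpa, Cebpb, Ebf1, Ebf2 and Nfia, and no counted gene on the same strand overlaps any of the factors. How the counting used strand was not given in the sources used here, and reads of these pairs were not examined.

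Pparg, the nuclear receptor that drives adipocyte differentiation, was low in stroma. Its level was 14.6 CPM in the control stroma (95% interval 12.5 to 16.9, 180 UMIs) and 13.2 in the KO stroma (45 UMIs). Control pericytes, the mural cells of capillaries, had the highest level at 136 CPM (110 to 167), 9.33-fold above the stroma. Control endothelial cells followed at 68.5, smooth muscle cells at 54.1, monocytes at 50.4, lymphatic endothelial cells at 44.2 and group 2 innate lymphoid cells (ILC2) at 33.8 CPM, and the intervals of neighbours in that order overlapped. The top 10 genes of control smooth muscle cells over other kept cells held 2 of their own markers and 2 of pericytes. These 2 mural classes were therefore not sharply separated. Macrophages stood at 15.5 CPM and T cells at 13.0, which could not be told from the stroma at this depth. No Pparg UMI was found in 75 mesothelial cells, which allows up to 4.19 CPM, and 1 was found in 125 B cells. In the KO library endothelial cells had 162 CPM and ILC2 89.5, and only 8 KO pericytes were found, with 6 Pparg UMIs. A Pparg UMI was seen in 13.2% of control stromal cells against 4.37% of T cells and 0.8% of B cells, whose median depths were 4541.5 and 4016 UMIs. When each cell was thinned to 2000 UMIs, with 46 stromal, 8 T and 1 B cells left out as shallower, these shares were 2.36% (1.50 to 3.53), 1.24% (0.40 to 2.86) and 0% (up to 2.93), so that the stromal share did not stand apart from that of T cells.

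Cebpa, the C/EBP that sustains the adipocyte state and is also a myeloid factor, was highest in macrophages, with 129 CPM in control and 101 in KO cells. Control monocytes had 92.4 and dendritic cells 65.2 CPM, with overlapping intervals. The stroma came next at 50.4 CPM (46.5 to 54.6) in control and 37.8 (31.5 to 44.9) in KO cells. In control T, B and lymphatic endothelial cells Cebpa had at most 3 UMIs each.

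Cebpb, the early C/EBP that is also an acute response gene of myeloid cells, had its highest level of the classes with at least 30 cells in control monocytes, at 1539 CPM (1469 to 1611). The 29 KO monocytes held 844 UMIs or 2224 CPM. Neutrophils, of which there were only 8 and 9, had 2763 CPM in control and 2906 in KO cells. Control macrophages had 280.3 CPM, mesothelial cells 216 and the stroma 139 (132 to 146), and B cells and dendritic cells had 40.0 and 15.3 CPM at the low end. Stroma and lymphatic endothelial cells, at 147 CPM, could not be told apart.

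Ebf1 and Ebf2, related factors of the early B cell factor family, were both present in the stroma and the mural cells, and Ebf1 in endothelial and B cells as well. Ebf1 was highest in control pericytes at 1452 CPM, followed by B cells, whose development it directs, at 1135 and smooth muscle cells at 1116, which overlapped. The stroma had 579 CPM in control and 517 in KO cells, endothelial cells 508 and 497, and control macrophages 4.55. Ebf2 had 244 CPM in control pericytes, 219 in stroma and 190.3 in smooth muscle cells, and the intervals of neighbours overlapped. In every other control class of at least 30 cells Ebf2 stood under 10 CPM, and 86.1% of its control UMIs were in stromal cells, which held 37.2% of all UMIs. KO stroma had 177 CPM.

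Zfp423, a zinc finger protein of preadipocyte commitment, was sparse. It had 38.3 CPM in control lymphatic endothelial cells, 32.9 in endothelial cells, 31.1 in pericytes and 24.9 in smooth muscle cells, with overlapping intervals, and all 4 point estimates lay above the stroma at 11.2 CPM (9.40 to 13.2). These levels rested on 13 to 24 UMIs per class outside the stroma. KO endothelial cells had 37.2 CPM and KO stroma 12.9.

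Klf4, an early growth and stress response factor that also shapes endothelial cells, was highest in endothelial cells, at 1389 CPM in control and 929.5 in KO cells, and second in control lymphatic endothelial cells at 751. Control monocytes had 580.4 CPM and stroma 549, with intervals that met, and pericytes had the lowest level at 26.6. Klf9, a glucocorticoid-induced repressor, was highest in the stroma of both libraries, with 673 CPM (658 to 688) in control and 825 (795 to 856) in KO cells. Control pericytes followed at 595 and smooth muscle cells at 529, and control immune classes other than ILC2 stayed under 50 CPM. Nfia was likewise highest in the stroma, at 716 CPM in control and 623 in KO cells, although in the control its interval overlapped that of lymphatic endothelial cells at 659 CPM. Among 13 control classes the stroma ranked first for Klf9 and Nfia and 8th for Pparg, 4th for Cebpa, 5th for Cebpb and 5th for Zfp423.

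**Figure D1:**
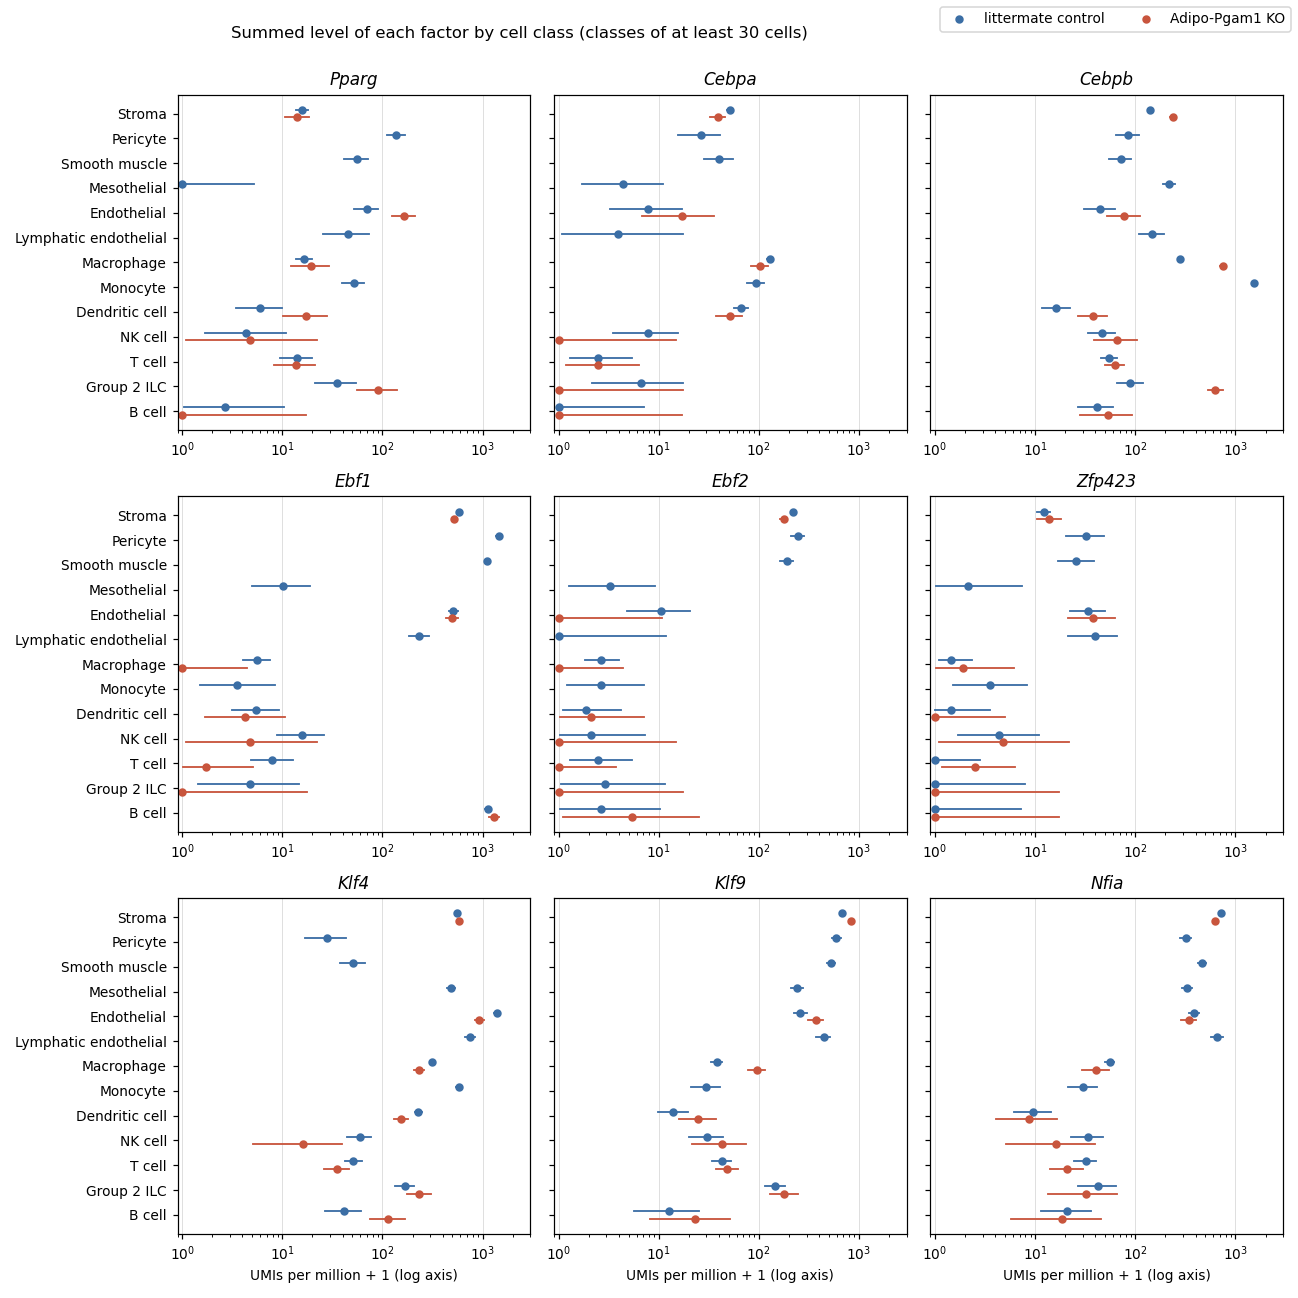
Summed level of the 9 counted factors by cell class, with CPM plus 1 on a log axis, points for the level and lines for the 95% Poisson interval, blue for the littermate control and red for the Adipo-Pgam1 KO library. Only classes of at least 30 cells are drawn, so 5 of the 13 control classes have no red point. In the control Pparg peaked in pericytes, Cebpa in macrophages, Cebpb in monocytes and Klf4 in endothelial cells, while Klf9 and Nfia were highest in stroma. In the KO library, where pericytes and monocytes were too few to be drawn, the highest Pparg point was that of endothelial cells at 162 CPM and the highest Cebpb point that of macrophages at 747.

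The stroma was then split by the summed UMIs of Pi16 and Dpp4, with at least 2 in the positive cells (305 control and 59 KO) and 0 in the negative cells (603 and 137), and cells with 1 left out. Pparg was lower in the positive cells. It had 5.14 CPM (22 UMIs) against 20.4 (138 UMIs) in the control, a 3.96-fold difference (2.51 to 6.52), and 3.74 (4 UMIs) against 19.1 (37 UMIs) in the KO library, a 5.11-fold difference (1.84 to 19.7). Cebpa went the same way, with 27.3 against 61.2 CPM in the control, 2.24-fold lower (1.82 to 2.77), and 28.1 against 43.9 in the KO library, 1.57-fold lower (1.02 to 2.46). In the control these were the 2 of 9 members at least 2-fold lower, beside 4.95% of the 10818 genes with at least 50 UMIs over both sides (measured genes), and 0 members were at least 2-fold higher, beside 3.27%. In the KO library, where Pparg had under 50 UMIs, 0 of 7 measured members were past 2-fold in either direction, beside 4.69% lower and 2.96% higher of 7339 genes. By their intervals 3 members were higher in the positive control cells, beside 12.8% of the measured genes, and 4 were lower, beside 24.5%. Of the 7 measured KO members 2 were higher, beside 11%, and 4 lower, beside 14.3%. On the log2 scale the Pparg ratio lay at the 1.76th percentile and the Cebpa ratio at the 4.09th of the measured genes in the control.

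Klf9 was also lower in the positive cells, with 464 against 786 CPM in the control (log2 ratio -0.76, -0.83 to -0.68) and 609.8 against 921.5 in the KO library (-0.60, -0.73 to -0.47). Klf4 went the other way, at 719 against 449 CPM in the control (log2 ratio 0.68, 0.61 to 0.75) and 803 against 457 in the KO library (0.81, 0.68 to 0.95). The 2 Klf genes therefore differed between the same cells in opposite directions in each library. Ebf2 was higher in the positive cells by 0.28 (0.16 to 0.40) in control and 0.37 (0.12 to 0.62) in KO cells, but by only 0.07 and 0.08 when cells needed 1000 genes and at most 5% mitochondrial UMIs. Zfp423 was higher by 0.69 (0.15 to 1.23) in the control, while its KO interval of -0.53 to 1.38 included 0. Nfia was slightly lower in both, by log2 ratios of -0.18 and -0.17. Cebpb gave 139 and 137 CPM in control against 248 and 235 CPM in KO cells, with intervals of the log2 ratio of -0.13 to 0.17 and -0.15 to 0.30. Ebf1 had 582 and 569 CPM in the control, with an interval of -0.04 to 0.10, and a ratio of -0.17 (-0.33 to -0.02) in the KO library.

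**Figure D2:**
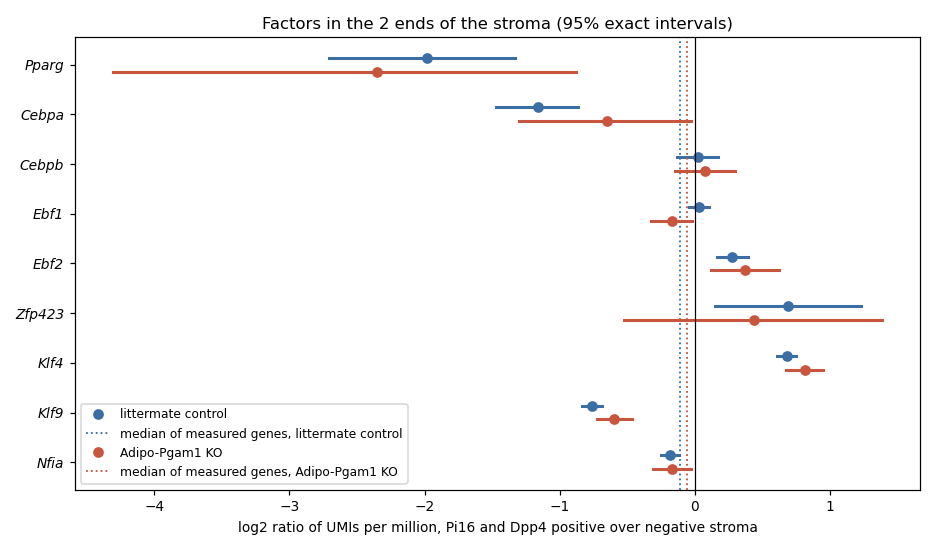
The log2 ratio of CPM in Pi16 and Dpp4 positive over negative stromal cells for each factor, with 95% exact intervals as lines, blue for the control and red for the KO library. Dotted lines give the median of all measured genes, -0.11 (control) and -0.06 (KO). Pparg, Cebpa and Klf9 lay to the left in both libraries and Klf4 to the right, with Ebf2 less far to the right.

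The control levels were graded over the number of Pi16 and Dpp4 UMIs. From 0 to 1, to 2 or 3 and to 4 or more of these UMIs, Pparg had 20.4, 15.7, 8.81 and 4.15 CPM, although neighbouring intervals overlapped. Cebpa had 61.2, 70.8, 38.6 and 24.3 CPM, so that the first step did not differ beyond counting error. Klf9 had 786, 775, 651 and 414 CPM, of which the first and second overlapped. Klf4 had 449, 506, 626 and 744 CPM, and the intervals of all 4 steps were apart. In the KO library Klf4 had 457, 571, 510.3 and 877 CPM and Klf9 921.5, 930.5, 909 and 534, and for both genes the cells with 4 or more UMIs stood apart from those with 2 or 3.

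**Figure D3:**
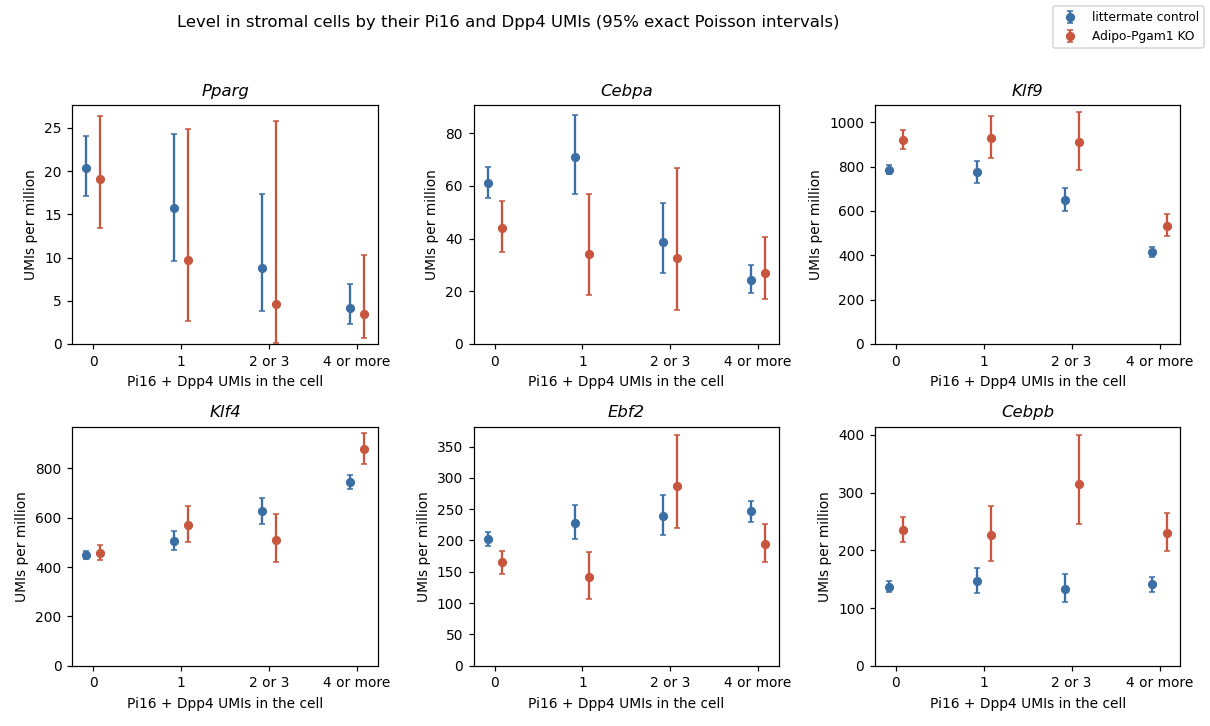
CPM of Pparg, Cebpa, Klf9, Klf4, Ebf2 and Cebpb in stromal cells grouped by their summed Pi16 and Dpp4 UMIs, with 95% Poisson intervals as bars, blue for the control and red for the KO library. Control Pparg was 20.4 at 0 and 4.15 at 4 or more UMIs, while Klf4 was 449 and 744.

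Other cell types' markers moved with the split. Smooth muscle markers summed to 1576 CPM in the negative and 345 in the positive control cells, macrophage markers to 310.1 and 61.7, and mesothelial markers to 8.70 and 503. The same sums in KO cells were 1578 and 35.5 CPM for smooth muscle, 18.1 and 5.61 for macrophages and 2.58 and 412.5 for mesothelium. The 4 red blood cell markers, haemoglobin genes, summed to 4046 CPM in the negative and 5420.5 in the positive control cells, and to 942 and 6133 in the KO library. The part of these markers in the ratios was not tested beyond leaving out such cells. Without the stromal cells that met another class's marker rule, which left 244 positive and 457 negative control cells, the log2 ratios were -2.48 for Pparg, -1.29 for Cebpa, -0.81 for Klf9 and 0.56 for Klf4. When stromal cells were instead limited to those with under 3 UMIs of the immune, endothelial, pericyte, mesothelial and Schwann cell markers, which left 46 and 125 control cells, Pparg came to -1.03 and Cebpa to -0.74, and in the 11 and 29 KO cells, where Pparg had few UMIs, its ratio turned from -2.35 to 0.87 and that of Ebf2 came to 1.70. In the control cells of this kind Zfp423 came to 2.01, Cebpb to -0.39 and Ebf1 to 0.24. With each cell thinned to 2000 UMIs the KO Pparg ratio likewise turned, to 1.15. In the whole control stroma monocyte markers summed to 612 CPM and pericyte markers to 325. Whether the limit of under 3 UMIs removed other cell types, or stromal cells with such markers or more UMIs, was not tested.

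Genes that PPARG and CEBPA are known to activate followed a similar course in the control. Of 23 listed lipid storage genes 14 had at least 50 UMIs in the split, 9 of them were lower in the positive cells by their interval, 2 higher and 3 neither, beside 24.5% lower and 12.8% higher of all measured genes. Their median log2 ratio was -0.80 beside -0.11 over all genes, and -0.63 without the cells that met another class's rule. Fabp4, the fatty acid carrier of adipocytes and also of endothelium, had 215 against 689 CPM. Lpl, the lipase that releases fatty acids from circulating lipoproteins, had 806 against 1549, and Plin2, a lipid droplet coat protein, 79.0 against 192, the 3 being named after their values were seen. Fabp5, another fatty acid carrier, went the other way, at 48.4 against 33.3 CPM. In the KO library 9 genes were measured, of which 4 were lower and 0 higher, beside 14.3% and 11%, with a median of -0.70 beside -0.06. Of 40 other adipogenic regulators, 32 were measured in the control, with 6 higher, 16 lower and a median of -0.32, beside the same 12.8% and 24.5% of all genes.

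Between genotypes, the question was whether these factors differed in the stroma of mice whose adipocytes were targeted. Of the 9 members, 0 differed 2-fold or more in either direction, beside 0.774% of the 11365 measured genes that were at least 2-fold higher and 4.34% that were at least 2-fold lower in the KO stroma, 88 and 493 genes, or 140 and 412 when scaled by median-of-ratios factors. By their intervals 3 members were higher, beside 8.46% of all genes, and 4 were lower, beside 23.7%. The median log2 ratio was -0.15 over the members and -0.12 over all measured genes.

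Cebpb was highest of the members on this ratio. It had 139 CPM (1712 UMIs) in the control and 238 (813 UMIs) in the KO stroma, 1.71-fold (1.58 to 1.87), at the 98.4th percentile of all genes. The positive cells gave 139 and 248 CPM and the negative cells 137 and 235, so that the log2 ratio was 0.83 in one and 0.78 in the other. At 2000 UMIs per cell, 23.7% of the control stromal cells and 34.4% of the KO ones held a Cebpb UMI, with intervals of 21.1 to 26.5 and 28.1 to 41.2, and before thinning the shares were 68.9% and 83.9%. In T cells the thinned shares were 9.90% and 8.21%. Klf9 had 673 CPM in the control and 825 in the KO stroma, 1.23-fold (1.17 to 1.28). In the 195 control and 42 KO stromal cells with under 3 UMIs of the other classes' markers named above, the Klf9 log2 ratio turned from 0.29 to -0.11, whereas that of Cebpb was 0.92. Klf4 had 549 and 579 CPM, a log2 ratio of 0.08 (0.01 to 0.15), which turned to -0.07 without the stromal cells that met another class's rule.

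Cebpa had 50.4 CPM (622 UMIs) in the control and 37.8 (129 UMIs) in the KO stroma, 1.34-fold lower (1.10 to 1.63). Its log2 ratio was -0.48 (-0.83 to -0.14) in the negative and 0.04 (-0.59 to 0.63) in the positive cells, and the difference between them was not tested. In the cells with under 3 UMIs of other classes' markers the ratio was negative in both, at -0.64 in the negative and -1.03 in the positive cells. Over all stromal cells its log2 ratio of -0.42 came to -0.52 without the cells that met another class's rule, among which those with macrophage markers numbered 39 (control) and 1 (KO), and to -1.15 in the cells with under 3 UMIs of other classes' markers. Ebf2 was 1.24-fold lower (1.13 to 1.36), Nfia 1.15-fold lower (1.10 to 1.21) and Ebf1 1.12-fold lower (1.06 to 1.18). With TMM scaling factors the log2 ratios of all 9 members stood higher, at -0.21 for Ebf2, -0.10 for Nfia and -0.06 for Ebf1, and the Ebf1 interval then ran from -0.14 to 0.01 and included 0, as it did with median-of-ratios factors (-0.12 to 0.03), so that 3 members were lower. In the cells with few UMIs of other classes' markers these ratios were instead larger in size, at -1.13 for Ebf2, -0.48 for Nfia and -0.33 for Ebf1. Pparg, at 14.6 and 13.2 CPM, had an interval of the log2 ratio of -0.65 to 0.33, and Zfp423, at 11.2 and 12.9 CPM, one of -0.32 to 0.70, so that a difference of up to about that size was not detectable at this depth. The Zfp423 log2 ratio of 0.20 turned to -1.92 in the cells with few UMIs of other classes' markers. Only 195 control and 42 KO cells remained there, and the whole KO stroma of 218 cells held 44 Zfp423 UMIs.

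Acute response genes were higher in the KO stroma too. By the interval, 8.46% of all measured genes were higher and 23.7% lower, with a median log2 ratio of -0.12. Of 20 measured immediate early genes, those that answer stimulation or tissue handling within minutes, 17 were higher in the KO stroma by their interval, 1 lower and 2 neither, with a median log2 ratio of 0.58. Their summed level was 5095 CPM in the control and 8122 in the KO stroma. Socs3, a feedback inhibitor of cytokine signalling, had 60.2 and 199 CPM, Atf3, a stress-induced factor, 16.4 and 46.6, and Fosb, an AP-1 subunit, 167 and 420.1. In the 545 control and 73 KO stromal cells below the median share of these genes the Cebpb log2 ratio was 0.68 and the Klf9 ratio 0.41, beside 0.78 and 0.29 over all stromal cells. Of 13 glucocorticoid response genes 9 were higher, 2 lower and 2 neither, with a median of 0.57. Zbtb16 had 51.9 and 119 CPM, and the metallothioneins Mt2 and Mt1 100.5 and 182 and 373 and 661. Of 15 measured clock genes 3 were higher, 8 lower and 4 neither, with a median of -0.48. Nr1d1 (REV-ERBα), a repressor of the clock, had 136 and 18.7 CPM, Dbp 40.6 and 12.0, and Nr1d2 63.8 and 23.4. The time of day of tissue collection was not given in the sources used here, and its part in the Klf9 and Cebpb levels was not tested.

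Of the 40 other adipogenic regulators 34 were measured in the stroma, with 6 higher (beside 8.46% of all measured genes), 11 lower (beside 23.7%) and 17 neither. Their median log2 ratio was -0.15, close to the -0.12 of all genes. The largest ratios in size were those of Dlk1, a surface inhibitor of adipogenesis, with 58 UMIs (4.70 CPM) in control and 3 (0.88 CPM) in KO cells, of Bcl6, a repressor, with 89.4 and 53.6 CPM, and of Ddit3, a stress-induced C/EBP family member that blocks its partners, with 27.3 and 43.6 CPM. Of the PPARG and CEBPA target genes 14 were measured, with 2 higher, 7 lower and 5 neither, beside the same shares of all genes, and a median of -0.25. Cd36, a fatty acid transporter that macrophages and endothelial cells also carry, had 52.6 and 7.32 CPM, Dgat2, a triglyceride synthesis enzyme, 4.54 and 1.46, and Fabp5 38.4 and 19.9. Macrophage and endothelial markers moved with them, at 213.9 and 12.6 and at 138 and 77.6 CPM in the control and KO stroma. Without the stromal cells that met another class's rule the median of these target genes was -0.15. Lpl, also named after its values were seen, had 1282 and 1296 CPM, with an interval of the log2 ratio of -0.03 to 0.06.

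**Figure D4:**
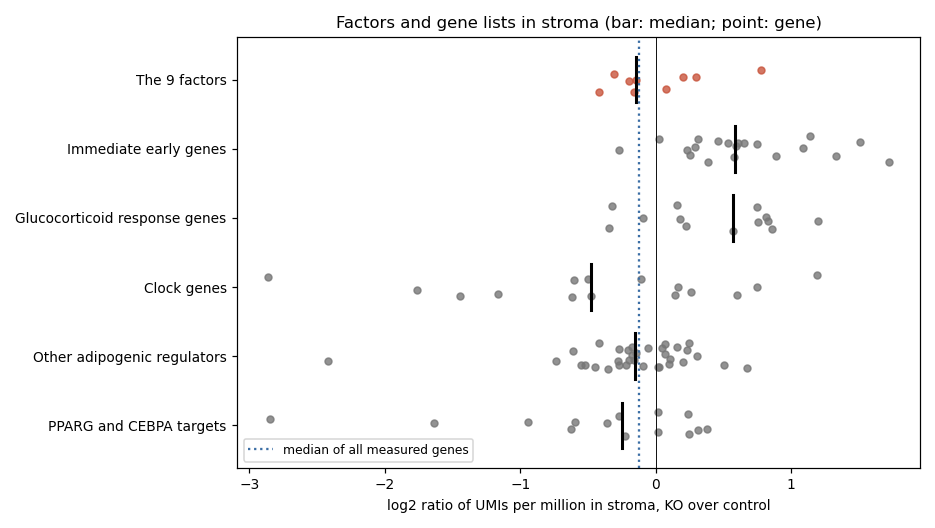
The log2 ratio of CPM in stroma, KO over control, for the 9 factors (red) and for the measured genes of 5 lists (grey), with a bar at the median of each and a dotted line at the median of all measured genes. Immediate early and glucocorticoid response genes had medians of 0.58 and 0.57, clock genes -0.48, and the factors -0.15.

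Outside the stroma, Cebpb was higher in KO macrophages, ILC2 and endothelial cells. Macrophages had 280.3 CPM in control and 747 in KO cells, 2.66-fold (2.45 to 2.90), and without the 5 cells with the most Cebpb UMIs in each library the log2 ratio of 1.41 came to 1.01. ILC2 had 88.2 CPM (47 UMIs in 113 cells) and 631 (141 UMIs in 31 cells), 7.15-fold (5.11 to 10.2), where the log2 ratio of 2.84 came to 0.75 without these 5 cells. Endothelial cells had 43.8 and 77.0 CPM, 1.76-fold (1.03 to 3.00). Dendritic cells had 15.3 and 37.0 CPM, but their log2 ratio of 1.27 turned to -0.17 without the 5 cells. In T, NK and B cells the intervals included 0, with log2 ratios of 0.19 (-0.24 to 0.62), 0.48 (-0.43 to 1.33) and 0.39 (-0.74 to 1.45), of which that in T cells came to 1.09 with the stricter cell filter (1000 genes, 5% mitochondrial) and to -0.45 after thinning to 2000 UMIs. The ILC2 ratio came to 1.10 after thinning, and the endothelial ratio of 0.81 to 0.00093 with each cell weighted equally. Of 4 monocyte markers measured in macrophages, 2 were at least 2-fold higher in KO cells and 0 lower, beside 1.52% and 4.84% of measured genes. By its interval 1 was lower, and their sum was 1633 CPM in control and 1527 in KO macrophages. Their part in the macrophage Cebpb ratio was not tested. Immediate early genes summed to 7150 CPM in control and 9236 in KO macrophages, to 11826 and 18954 in ILC2, to 6070 and 8321 in endothelial cells, and to 4470.5 and 7599 in T cells. Red blood cell markers moved the other way between the libraries, from 9060 to 901 CPM in macrophages, 10979 to 1354 in endothelial cells, 7821 to 1324 in ILC2 and 14030 to 3842 in T cells. In the whole stroma these markers went from 4507 to 3731 CPM, with 4046 to 942 in the negative and 5420.5 to 6133 in the positive cells. Their part in these ratios was not tested. Mmp12 came first among the genes higher in KO ILC2 than in other kept cells, and was not in the top 10 of control ILC2. The 4 PPARG and CEBPA target genes measured in ILC2 summed to 229 CPM in control and 1217 in KO cells. Of these, 3 were at least 2-fold higher and 1 lower, beside 4.06% and 4.77% of measured genes. Whether RNA of other cell types added to the KO ILC2 levels was not tested.

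Klf9 was higher in KO macrophages, at 36.9 and 94.97 CPM, 2.58-fold (2.03 to 3.26), and in KO endothelial cells, at 259 and 369 CPM, 1.43-fold (1.14 to 1.78), where the log2 ratio of 0.51 came to 0.90 with the stricter cell filter. Klf4 was lower in KO endothelial cells, at 1389 and 929.5 CPM, 1.49-fold (1.32 to 1.69), where the log2 ratio of -0.58 came to -0.94 with that filter. It was also lower in KO macrophages, at 309 and 231 CPM, 1.34-fold (1.17 to 1.53), where the log2 ratio of -0.42 came to -1.18 without the 5 cells with the most Klf4 UMIs and to -1.16 with that filter. Pparg was higher in KO endothelial cells, at 68.5 and 162 CPM, 2.37-fold (1.60 to 3.51), and in KO ILC2, at 33.8 (18 UMIs) and 89.5 (20 UMIs), 2.65-fold (1.33 to 5.31). Whether RNA of other cell types added to this KO ILC2 level was likewise not tested. Cebpa was 1.28-fold lower (1.05 to 1.58) in KO macrophages, a log2 ratio of -0.36 that came to -1.23 after thinning. Of the genes measured in endothelial cells 1.58% exceeded 2-fold upward and 3.43% downward, beside Pparg as the 1 measured member past 2-fold. In macrophages the shares were 1.52% and 4.84%, beside Cebpb and Klf9 higher, and in ILC2 4.06% and 4.77%, beside Cebpb higher, since Pparg had under 50 UMIs there. Ebf1, with 30 UMIs (4.55 CPM) in 644 control macrophages, had 0 in 81 KO macrophages, which allows up to 3.40 CPM. The 6 measured stroma markers summed to 307 CPM in control and 157 in KO macrophages, and their part in the Ebf1 counts was not tested.

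**Figure D5:**
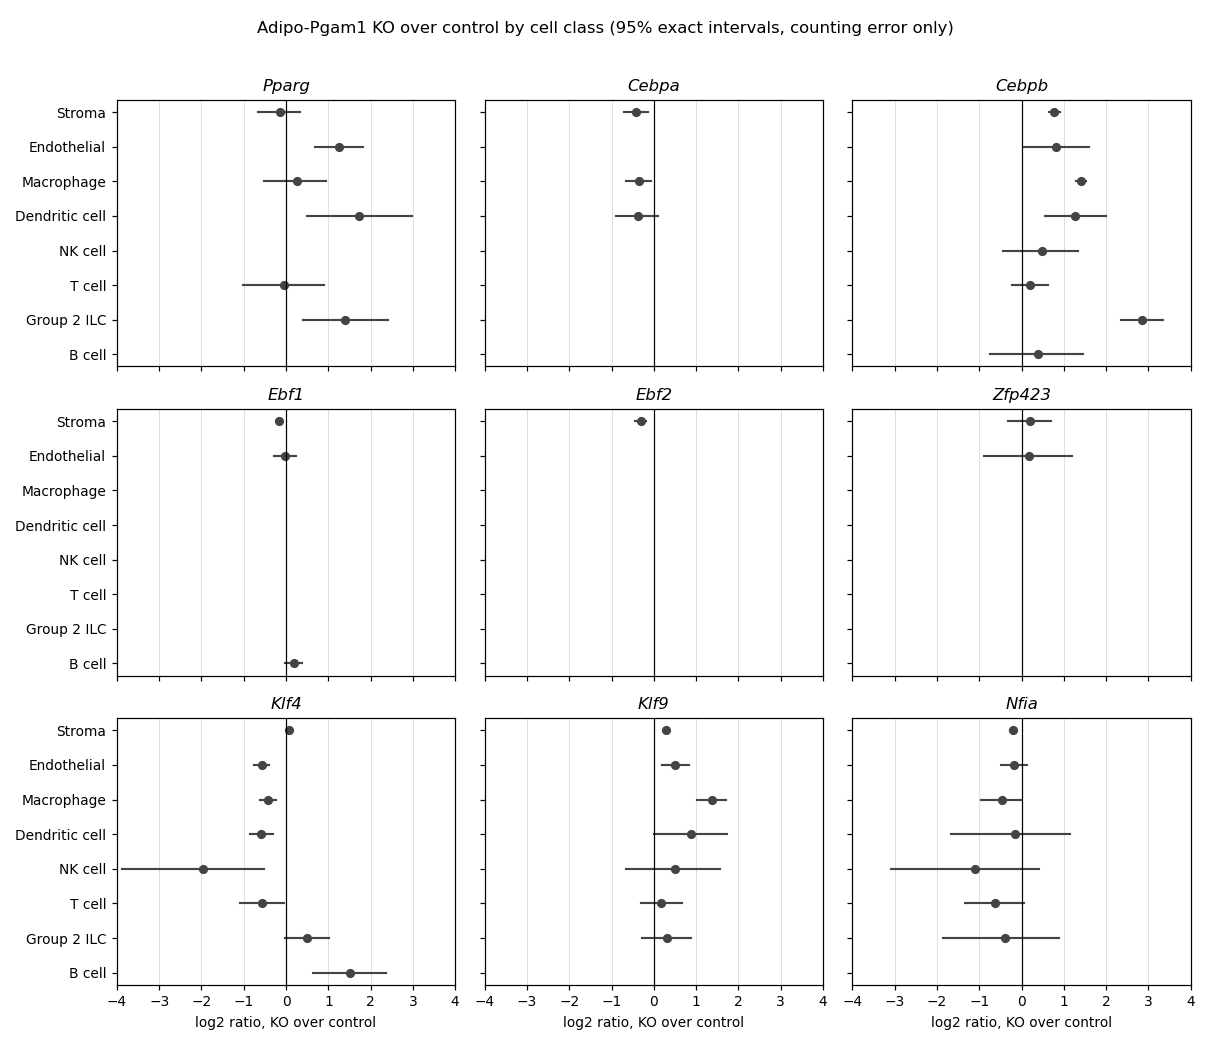
The log2 ratio of KO over control by cell class for each factor, with 95% exact intervals as lines, for classes with at least 30 cells in both libraries and at least 20 UMIs in sum. Ratios with only a few UMIs in either library are also left out, and lines end at the edge of the axis. The whole Cebpb interval lay right of 0 in stroma, endothelial cells, macrophages, dendritic cells and ILC2, while in T, NK and B cells the point lay right of 0 and the interval included it. Klf4 lay left of 0 in endothelial cells, macrophages, dendritic, NK and T cells and right of it in B cells.

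Over the 13 control classes of at least 30 cells, which share 1 library and differ in depth, the genes whose log2 level followed each factor most closely were taken from 12999 genes. For Klf9 these were Per3, a clock gene, and Thra, a thyroid hormone receptor, with Pearson's r of 0.97 each. For Ebf2 they were Pcdh18 and A830082K12Rik, both 0.99, for Zfp423 Pcdh12 and Gng11, 0.99 and 0.98, and for Nfia Cyp2j6 and Tshz2, 0.98 and 0.97. For Cebpa they were Gusb and Smim5, at 0.95 and 0.91, and for Pparg Fbxo42 and Lrp5, at 0.90 and 0.88. The closest genes to Klf4 were Tmem147 and Chmp2a, at 0.90 and 0.89, to Ebf1 1110059E24Rik and Rbm18, at 0.88 and 0.86, and to Cebpb Etf1 and Nlrx1, at 0.87 and 0.85. In the 8 KO classes r for these 18 pairs ran from 0.38 for Klf4 with Chmp2a to 0.98 for Zfp423 with Gng11, and was lowest after that for Ebf1 with Rbm18 at 0.45 and Cebpb with Nlrx1 at 0.47. Among the members themselves, Klf9 and Nfia were most alike, with r of 0.95 over control and 0.94 over KO classes, and Pparg with Cebpa gave 0.20 and 0.09.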

How the data were processed

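Single cells of the gWAT stromal vascular fraction were profiled with the 10x Genomics Chromium 3′ v3 kit, 1 library per genotype. Per the study's methods and the submitters' processing notes, the authors ran Cell Ranger 3.0.1 on mm10 and analysed cells with Seurat 3.1.5 in R 4.0.1, and the deposited matrices hold UMI counts per gene and barcode, not normalised. Kept barcodes had 500 or more genes and a mitochondrial share of 10% or less, with median depths of 6948 (control) and 7452.5 (KO) UMIs. Stroma was set by Dcn and Pdgfra, and 14 other classes by the number of fixed marker genes detected (2 to 4, set after the files were seen), with cells of more than 1 class or of none left out. Doublets were not called. UMIs were summed per class and divided by all UMIs of the class (CPM). Intervals were exact 95% Poisson intervals for levels, conditional binomial for ratios and Clopper-Pearson for shares, and cover counting error only. A gene was measured with at least 50 UMIs over both sides, and a class was compared with at least 30 cells. No p-value was computed, each genotype being 1 library. Shares of cells were also given after thinning to 2000 UMIs. A count of 0 was read as allowing up to 3 counts for a floor, and by its Poisson interval where an upper CPM is printed.

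The members and gene lists were chosen with earlier results of these data known. Named genes were all members, in each of 5 lists the 3 measured genes with the largest KO over control ratio in stroma, and for each member the 2 genes of highest Pearson's r, on log2(CPM + 10), over the control classes. Fabp4, Plin2, Lpl and, in the stromal split, Fabp5 fell outside this rule and were named after their values were seen. Motifs were searched in RefSeq GRCm38.p6 promoter sequences, where 8 of the 9 counted members matched. Gene positions came from the GRCm38 annotation, in which 28416 of 28692 gene identifiers matched. In all, 14 alternatives were planned and 2 were added after seeing the data (leaving out stromal cells that met another class's rule, and leaving out the top 5 cells of a gene outside the stroma). The scripts were tested on simulated data and used Python 3.11.15 (pandas 2.3.3, scipy 1.17.1, numpy 2.4.6, matplotlib 3.10.9) and, for TMM factors alone, edgeR 4.0.16 in R 4.3.3.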

Additional observations from a re-analysis of the deposited data

Results flagged for a closer look

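Cebpb was also higher in KO barcodes that the cell filter had left out. Among 4641 control and 1772 KO barcodes it had 689 and 399 UMIs, or 70.8 and 97.0 CPM, a log2 ratio of 0.46 (95% interval 0.27 to 0.64). Every other counted member was lower in these KO barcodes, from -0.34 for Klf4 to -1.35 for Ebf2, and only the Zfp423 interval included 0. Klf9, higher in the KO stroma, was here at -0.41 (-0.58 to -0.25). The cell types of these barcodes were not determined.

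The Klf4 ratio of KO over control pointed in different directions among classes. On the log2 scale it was 0.078 in the stroma and 1.51 in B cells, the latter on 24 control and 26 KO UMIs. It was -0.58 in endothelial cells, -0.42 in macrophages, -0.58 in dendritic cells, -0.56 in T cells and -1.95 in NK cells, the last on 52 and 4 UMIs. The intervals of these ratios left out 0, but the difference between classes was not tested, and the stromal ratio turned negative under 4 of the alternatives given among the processing results.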

How the results depend on the processing

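No paired analysis was possible because each genotype has 1 library and no test was made. The log2 ratios and counts below are positive over negative in the control unless said otherwise. With a minimum of 20 UMIs, 575 genes were at least 2-fold higher and 829 lower (main 354 and 536), and 200 and 849 between genotypes in stroma (88 and 493). With median-of-ratios factors 140 genes were higher in the KO stroma. Without cells that met another class's rule, 336 and 218 genes were lower in these comparisons. In the KO library the members above 0 numbered 1 (main 2) with the stricter cell filter (1000 genes, 5% mitochondrial), without the top 5 cells, and at a Pi16 and Dpp4 sum of at least 1 or at least 4. These counts take all 9 members with no minimum of UMIs, so those below 0 include Pparg, which had under 50 UMIs there, beside the 4 measured members. Those below 0 (main 5) numbered 3 with stricter Dcn and Pdgfra, 2 with TMM or median-of-ratios factors or in cells low in immediate early genes, 1 after thinning and 0 in cells with under 3 UMIs of other markers, where the control had 1 (main 4). In the main setting 11% of the measured genes lay above 0 and 14.3% below it in the KO library, and 12.8% and 24.5% in the control. Between genotypes, thinning left 1 member above and 1 below 0 (main 3 and 4, beside 8.46% and 23.7% of the measured genes).

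Klf4 (main 0.68) came to 0.60 with the stricter filter, 0.57 with few other markers, 0.78 and 0.79 with TMM and median-of-ratios factors, 0.58 at a sum of at least 1, 1.05 in cells low in immediate early genes and 0.56 without other-class cells. Klf9 (-0.76) came to -0.88 with few other markers, -0.62 thinned, -0.66 and -0.65 with these factors, -0.55 and -0.92 at sums of at least 1 and 4, and -0.93 in cells low in immediate early genes. Pparg came to -1.03 and Cebpa to -0.74 with few other markers, and Cebpa to -0.71 at a sum of at least 1. Between genotypes in stroma, Klf9 (0.29) came to -0.11 with few other markers, 0.20 weighted equally, 0.17 thinned, 0.39 and 0.42 with the factors, 0.41 in cells low in immediate early genes and 0.19 without other-class cells. Cebpb (0.78) came to 0.92 with few other markers and 0.91 without other-class cells, Cebpa to -1.15 with few other markers, and Pparg to 0.35 in cells low in immediate early genes.

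Signs turned for Klf4 between genotypes in stroma (-0.0042 with the stricter filter, -0.023 without the top 5 cells, -0.24 in cells low in immediate early genes, -0.073 without other-class cells), in positive cells (-0.0085 without the top 5 cells, -0.12 in cells low in immediate early genes) and in T cells (0.17, stricter filter), and for Cebpb in dendritic cells (-0.17 without the top 5 cells). They also turned with few other markers for Nfia (0.0089), KO Pparg (0.87), KO Ebf1 (0.60) and Klf9 between genotypes in negative cells (-0.42), weighted equally for KO Ebf1 (0.025), thinned for KO Pparg (1.15), KO Nfia (0.12) and Nfia between genotypes in positive cells (0.0088), and in cells low in immediate early genes for KO Nfia (0.019). The cause was not tested, and the restricted settings also leave fewer cells and UMIs. Of all values under the alternatives, 740 stayed within the interval or spread of the main value, 174 moved beyond it and 18, those given above, changed the sign of a ratio whose main interval left out 0. A further 59 changed the sign of a ratio whose main interval included 0, and 24 of these moved beyond that interval. TMM factors raised all KO over control log2 ratios in stroma by 0.10 and median-of-ratios factors by 0.12, and no member changed sign there, but the Ebf1 interval then included 0. Depth limits Pparg and Zfp423 most, and 1 library per genotype limits every comparison between genotypes.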
